A study of Mus musculus with 18 samples.

Results

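The circadian clock genes described here are Arntl, Clock, Npas2, Per1, Per2, Per3, Cry1, Nr1d1, Nr1d2 and Dbp. They were taken by gene symbol from the array annotation, with all probe sets of each gene, which gave 10 genes of 18194 and 24 probe sets of 45101. No measured value entered that choice of genes, although the genes were listed with earlier results of these data known. Each probe set named 1 gene only. Per3 had 6 probe sets, Clock 4, Per2 3, and Arntl, Npas2, Nr1d2 and Dbp 2 each, while Per1, Cry1 and Nr1d1 had 1.

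The mice were males of the strain C57BL/6J, aged 14 weeks, without any engineered allele named in the labels. They received either MPTP, a toxin that injures the dopamine neurons projecting from midbrain to striatum, or saline. MPTP was injected intraperitoneally at 30 mg/kg, as the free base, once a day for 5 days, and the mice were killed 4 days after the last dose. Frontal cortex, striatum and midbrain were taken from both treatments, giving 6 groups of 3 Affymetrix arrays labelled as biological replicates, 18 in all. The hour at which the mice were killed is not given in the sources used here, so whether that hour was the same for the treatment groups could not be checked.

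In mammalian cells the clock is a feedback loop of transcription. CLOCK or its relative NPAS2 pairs with BMAL1, the product of Arntl, and activates genes through E-boxes, among them the Per and Cry genes, whose proteins return to repress the pair. The nuclear receptors REV-ERBα and REV-ERBβ, products of Nr1d1 and Nr1d2, repress Arntl, and DBP is an output factor that acts on D-boxes. In brain regions outside the suprachiasmatic nucleus many of these transcripts rise and fall over the day and are also set by feeding, arousal and glucocorticoids.

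The promoters were searched for the elements that these factors bind, and 4 windows are shown, 3 because they held a match and that of Dbp because the gene carries the results below. Each sequence is the 250 bases before the RefSeq start of the gene in GRCm38.p6, read 5′ to 3′ on the strand of the gene, with matches to an E-box (CACGTG) or a D-box (TTATGNAA) in capitals. The Per1 window lies at chr11:69098699-69098948 on the plus strand, Cry1 at chr10:85185055-85185304 on the minus strand, Per3 at chr4:151044666-151044915 on the minus strand and Dbp at chr7:45704997-45705246 on the plus strand.
Per1: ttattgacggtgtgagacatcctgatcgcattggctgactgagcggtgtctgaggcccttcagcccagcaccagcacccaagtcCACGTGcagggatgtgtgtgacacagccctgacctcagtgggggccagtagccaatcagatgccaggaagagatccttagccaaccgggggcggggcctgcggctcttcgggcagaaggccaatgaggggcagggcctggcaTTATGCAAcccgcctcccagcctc
Cry1: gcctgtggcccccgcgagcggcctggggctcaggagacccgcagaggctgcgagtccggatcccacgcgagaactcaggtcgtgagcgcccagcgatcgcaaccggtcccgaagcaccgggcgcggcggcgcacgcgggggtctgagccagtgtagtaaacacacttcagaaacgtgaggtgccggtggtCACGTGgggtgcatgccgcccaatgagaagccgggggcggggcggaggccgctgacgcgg
Per3: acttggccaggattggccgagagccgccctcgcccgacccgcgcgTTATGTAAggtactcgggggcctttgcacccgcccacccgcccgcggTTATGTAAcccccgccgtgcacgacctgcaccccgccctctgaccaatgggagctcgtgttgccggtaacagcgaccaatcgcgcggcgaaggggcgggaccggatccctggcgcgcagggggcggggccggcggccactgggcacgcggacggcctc
Dbp: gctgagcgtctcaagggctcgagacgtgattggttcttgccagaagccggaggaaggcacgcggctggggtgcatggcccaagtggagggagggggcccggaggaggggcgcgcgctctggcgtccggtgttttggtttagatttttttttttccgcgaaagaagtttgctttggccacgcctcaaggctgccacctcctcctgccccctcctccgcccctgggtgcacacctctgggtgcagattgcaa
The Per1 window held an E-box that began 166 bases before the start and a D-box that began 24 bases before it. The Cry1 window held an E-box 60 bases before the start, and the Per3 window held a pair of D-boxes, 205 and 158 bases before it. The Dbp window held no match to these letters, nor to the REV-ERB or ROR element (TAGGTCA or TGGGTCA) or the cyclic AMP element (TGACGTCA). Both strands were searched, and of 32851 such windows 6.02% held an E-box, 3.07% a D-box, 5.38% a REV-ERB or ROR element and 1.55% a cyclic AMP element. The windows of Arntl, Clock, Npas2, Nr1d1 and Nr1d2, and a second Per1 window at another start, held none of the 4 motifs in these bases, and Per2 was not searched. A match is a description of the letters and not a bound site. Elements that differ from these letters or lie outside the 250 bases were not counted. A window without a match, such as those of Arntl, may therefore still lie at a promoter that holds such an element.

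All values are log2 expression from RMA, the authors' normalisation, so a difference of 1 is a doubling. Array medians ran from 5.14 to 5.21, and arrays of one group correlated between 0.991 and 0.997. Each gene was followed by its probe set of highest mean, and all 10 genes passed the filter on dim genes (5.18 in at least 1 region) with 11741 genes tested in limma. The dissections matched their labels, since all 7 striatal neuron markers tested were higher in striatum than in the other regions and all 6 cortical markers were highest in cortex. Of the checks of the toxin, Gfap, a marker of reactive astrocytes, rose by 1.17 in striatum (limma, Benjamini-Hochberg adjusted p = 6.32e-05). Th, the rate-limiting enzyme of dopamine synthesis, differed by -0.82 in midbrain without passing the test (adjusted p = 0.133). Slc6a3, the remaining check, differed by -0.37 in midbrain and did not pass either (limma adjusted p = 0.208).

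Of the clock genes, Dbp had the most even difference between MPTP and saline mice: it rose in striatum and midbrain and in the mean over the 3 regions. Arntl fell in striatum and in the mean over regions, and Nr1d2 rose in the mean over regions. In cortex 0 of the 10 genes passed the limma test at a Benjamini-Hochberg adjusted p under 0.05, against 0.0681% of all genes tested, and 3 of them (Dbp, Per3 and Nr1d1) had an unadjusted p under 0.05, against 6.13% of all genes. In striatum 2 of 10 passed, 1 higher and 1 lower, against 2.1% of all genes (1.29% higher and 0.809% lower). Arntl, Dbp and Nr1d2 had an unadjusted limma p under 0.05 there, against 16.3% of all genes. In midbrain 1 of 10 passed, higher, against 2.54% of all genes (2.15% higher). Dbp and Nr1d2 had an unadjusted limma p under 0.05 in midbrain, where the share of all genes at that level is not given here. In the mean over regions 3 of 10 passed, 2 higher and 1 lower, against 9.04% (6.61% higher and 2.43% lower). The median difference of the 10 genes was 0.13 in cortex, 0.17 in striatum and 0.04 in midbrain, where the medians of all genes tested were 0.04, -0.03 and 0.03.

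**Figure D1:**
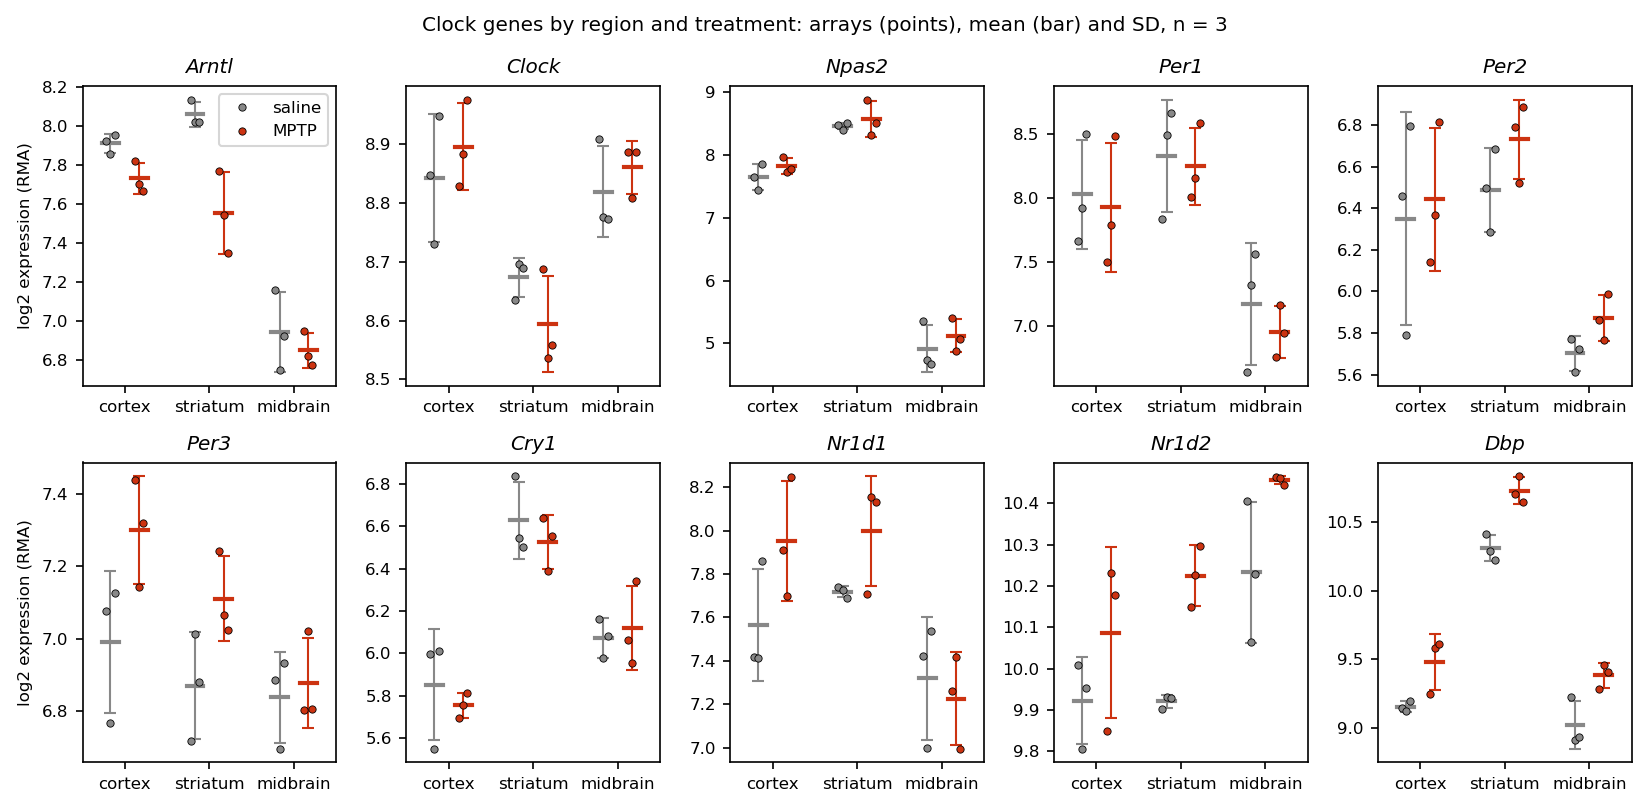
Log2 expression of the 10 clock genes in cortex, striatum and midbrain (x axis), in saline (grey) and MPTP (red) mice; points are arrays, the bar is the mean and the whisker the SD (n = 3). Dbp lies above saline in all 3 regions, Arntl lies lowest in midbrain, and Npas2 is near 5 in midbrain and above 7 in the other regions.

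In the positive limb, Arntl was the gene that differed most. Its striatal arrays read 8.14, 8.02 and 8.02 in saline mice and 7.77, 7.54 and 7.35 in MPTP mice, so that every MPTP array lay below every saline array. The fall was 0.51 (SE 0.108, 95% interval -0.73 to -0.28, adjusted p = 0.0164), a 1.42-fold lower level. In cortex the arrays read 7.93, 7.86 and 7.95 after saline and 7.82, 7.70 and 7.67 after MPTP, again without overlap, but the difference of -0.18 did not pass (adjusted p = 0.865). Of all genes tested, 14.7% in striatum, 3.12% in cortex and 5.17% in midbrain had MPTP arrays all below the saline arrays, and 8.46%, 10.2% and 11.1% had them all above. The midbrain arrays overlapped, with 7.16, 6.75 and 6.92 after saline and 6.95, 6.82 and 6.77 after MPTP, a difference of -0.09 (adjusted p = 0.721). Over the 3 regions together Arntl fell by 0.26 (SE 0.0628, adjusted p = 0.0112).

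The striatal call for Arntl rests on few arrays. It was lost without saline replicate 1 (-0.47, adjusted p = 0.068) and without MPTP replicate 3 (-0.40, adjusted p = 0.0822), and the call in the mean over regions was lost without striatal saline replicate 2 (-0.26, adjusted p = 0.0523).

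Clock and Npas2, the partners of BMAL1, did not pass in any region or in the mean. The MPTP-minus-saline difference of Clock was 0.05 in cortex, -0.08 in striatum and 0.04 in midbrain, with a 95% interval for the mean over regions from -0.09 to 0.10. Npas2 differed by 0.17, 0.11 and 0.20, and its interval for the mean over regions ran from -0.04 to 0.36. The interval for Clock was thus the narrower of the pair, and neither excludes 0.

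Among the repressors, Per1, Per2 and Cry1 did not pass in any region or in the mean. Per1 arrays ranged widely within groups, for example 7.67, 7.92 and 8.50 in saline cortex and 7.50, 7.79 and 8.49 in MPTP cortex. The mean over regions of the Per1 difference was -0.13 (SE 0.144, 95% interval -0.43 to 0.16), that of Per2 was 0.17 (SE 0.109, interval -0.05 to 0.39) and that of Cry1 was -0.05 (SE 0.0771, interval -0.21 to 0.11). Each of these intervals includes 0, and the one for Per1 is the widest of the 10 genes. It may still be too narrow, because Per1 deviations recurred by replicate number across regions. Saline replicate 1, for example, deviated from its group mean by -0.362 in cortex, -0.496 in striatum and -0.534 in midbrain. The block for the presumed animal used one correlation for all genes, 0.00558, which takes almost no account of this.

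Per3, the third Period gene, gave higher readings after MPTP in cortex and striatum. The cortical arrays read 7.08, 6.77 and 7.13 after saline and 7.44, 7.14 and 7.32 after MPTP, and the striatal arrays 6.72, 7.01 and 6.88 against 7.24, 7.07 and 7.02. The groups did not overlap in either region, while in midbrain 6.89, 6.70 and 6.93 after saline overlapped with 6.80, 7.02 and 6.81 after MPTP. The Per3 differences of 0.31, 0.24 and 0.04 did not pass (adjusted p = 0.703, 0.309 and 0.91), nor did the mean of 0.20 (adjusted p = 0.0716). That mean passed without cortical saline replicate 3 (0.22, adjusted p = 0.0475).

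Of the REV-ERB genes, Nr1d2 had the tighter arrays. In striatum they read 9.90, 9.93 and 9.93 after saline and 10.15, 10.23 and 10.30 after MPTP, and in midbrain 10.41, 10.06 and 10.23 against 10.46, 10.46 and 10.44. The MPTP arrays lay above all saline arrays in both regions, but the differences of 0.30 and 0.22 did not pass (adjusted p = 0.0796 and 0.195). The cortical arrays overlapped, at 10.01, 9.81 and 9.95 after saline and 9.85, 10.23 and 10.18 after MPTP, a difference of 0.16. In the mean over regions Nr1d2 rose by 0.23 (SE 0.0521, adjusted p = 0.00729), 1.17-fold. The midbrain difference passed without saline replicate 1 (0.31, adjusted p = 0.0367).

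Nr1d1 read 7.42, 7.41 and 7.86 in saline cortex and 7.91, 7.70 and 8.25 in MPTP cortex. In striatum it read 7.74, 7.73 and 7.69 against 7.71, 8.16 and 8.13, and in midbrain 7.42, 7.00 and 7.54 against 7.26, 7.42 and 6.99. The groups overlapped in every region. Its differences of 0.39, 0.28 and -0.09 did not pass, nor did the mean of 0.19 (SE 0.0909, adjusted p = 0.198).

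Dbp, the output factor, was the only one of the 10 genes whose MPTP arrays lay above all saline arrays in each of the 3 regions, which held for 0.775% of all genes tested. The striatal arrays read 10.41, 10.29 and 10.22 after saline and 10.70, 10.83 and 10.64 after MPTP. The rise was 0.42 (SE 0.0946, 95% interval 0.22 to 0.61, adjusted p = 0.0224), 1.34-fold. The midbrain arrays read 9.23, 8.91 and 8.94 after saline and 9.29, 9.46 and 9.41 after MPTP, a rise of 0.36 (interval 0.16 to 0.55, adjusted p = 0.0417), with little distance between the highest saline and the lowest MPTP array. In cortex the arrays read 9.15, 9.13 and 9.20 against 9.25, 9.58 and 9.61, and the difference of 0.32 (interval 0.13 to 0.52) did not pass (adjusted p = 0.374). In the mean over regions Dbp rose by 0.37 (SE 0.0549, 95% interval 0.25 to 0.48, adjusted p = 0.000304), 1.29-fold.

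The call in the mean over regions held without each of the 18 arrays in turn. The striatal call was lost without saline replicate 2 or 3 or MPTP replicate 1 or 2 (0.36 to 0.43, adjusted p from 0.0667 to 0.104), and the midbrain call without any one of its 6 arrays except saline replicate 1 (0.30 to 0.41, adjusted p from 0.0588 to 0.196).

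**Figure D2:**
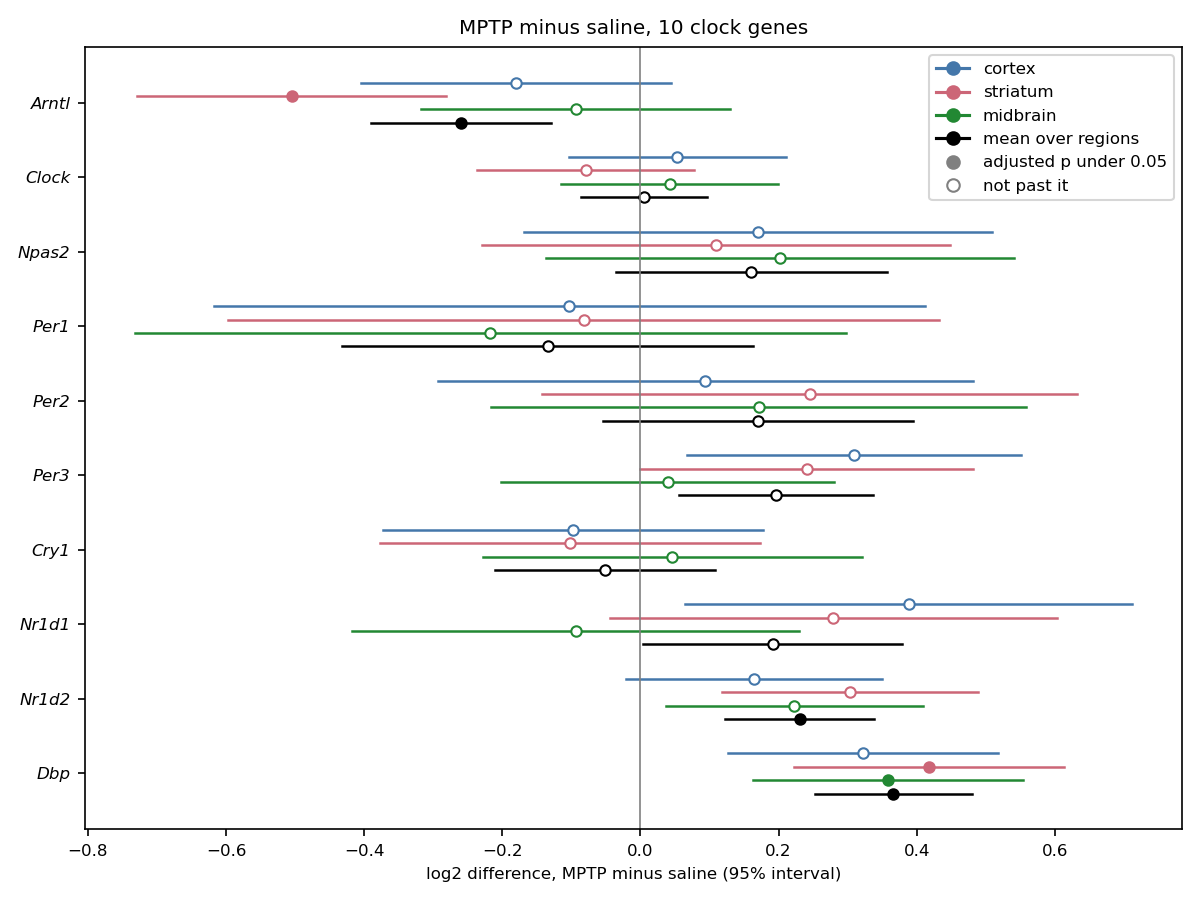
Log2 difference between MPTP and saline mice (x axis) with its 95% interval for each clock gene (y axis), by region and for the mean over regions; filled points passed the limma test at an adjusted p under 0.05. Dbp in striatum, midbrain and the mean, Arntl in striatum and the mean, and Nr1d2 in the mean are filled.

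The response was also compared between regions. With interaction contrasts in limma, 0 of the 10 genes differed in response between any pair of regions at an adjusted p under 0.05. Of all genes tested, 0.0596% passed between striatum and cortex, 0% between midbrain and cortex and 0.0681% between midbrain and striatum. At an unadjusted p under 0.05 there was 1 of the 10 genes in each contrast, against 7.75%, 4.97% and 5.89% of all genes. For Arntl the difference in response was -0.33 for striatum against cortex (95% interval -0.64 to -0.01, limma adjusted p = 0.634) and 0.41 for midbrain against striatum (interval 0.09 to 0.73, limma adjusted p = 0.717). For Nr1d1 it was -0.48 for midbrain against cortex (interval -0.94 to -0.02, limma adjusted p = 0.994). For Dbp the interval of the difference in response ran from -0.18 to 0.37 between striatum and cortex, from -0.24 to 0.31 between midbrain and cortex and from -0.33 to 0.22 between midbrain and striatum. A response of Dbp confined to one region was thus not shown.

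The other probe sets of the same genes gave a second reading, and they were tested in a fit of 23992 probe sets. For Dbp the second probe set, 1418174_at, rose in striatum by 0.36 (adjusted p = 0.0495) and in the mean over regions by 0.27 (adjusted p = 0.00283). Its cortical difference was 0.31 and its midbrain difference 0.16, neither past the test, and 0.0875% of all probe sets were called in cortex. The striatal call of this probe set was lost without any one of the 6 striatal arrays (0.28 to 0.41, adjusted p from 0.0629 to 0.168). The probe set used for Dbp carries the suffix that Affymetrix gives to probes shared by several transcripts, whereas 1418174_at does not.

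For Per3 the probe set 1441445_at gave a larger difference than the one used for the gene. It read 5.84, 5.87 and 5.97 in saline striatum and 6.80, 6.30 and 6.36 in MPTP striatum, and 5.61, 5.49 and 5.47 in saline midbrain against 6.38, 6.02 and 6.04 in MPTP midbrain. The groups did not overlap in either region. It rose by 0.59 in striatum (SE 0.154, adjusted p = 0.0457) and by 0.62 in midbrain (adjusted p = 0.0221), against 1.96% and 4.08% of all probe sets called there. In cortex it read 6.06, 5.80 and 6.45 after saline and 6.78, 6.40 and 6.47 after MPTP, with overlap and a difference of 0.45 (adjusted p = 0.408). In the mean over regions it rose by 0.55 (SE 0.0894, adjusted p = 0.000557), against 10.8% of probe sets called.

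The Per3 probe sets were not alike. The probe set 1458176_at rose by 0.27 in the mean over regions (adjusted p = 0.0363), with 0.16, 0.45 and 0.20 in cortex, striatum and midbrain, none past the test there. That call was lost without cortical saline replicate 2, cortical MPTP replicate 1 or 3, any striatal saline replicate, striatal MPTP replicate 1, midbrain saline replicate 3 or midbrain MPTP replicate 1 or 2 (0.23 to 0.29, adjusted p from 0.0544 to 0.0913). The dim probe set 1421086_at differed by 0.31, 0.12 and -0.02, and of the 2 that were too dim to test, 1442243_at differed by 0.38, 0.40 and 0.26 and 1460662_at by -0.05, -0.03 and 0.11. The midbrain values of Per3 therefore ran from -0.02 to 0.62 among tested probe sets, and the annotation used here does not say which part of the transcript each probe set reads. The striatal call of 1441445_at was lost without any one striatal array except MPTP replicate 2 (0.44 to 0.66, adjusted p from 0.0697 to 0.217). Its midbrain call was lost without any one midbrain array except saline replicate 1 and MPTP replicate 2 (0.51 to 0.68, adjusted p from 0.0666 to 0.119).

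The second probe sets of Arntl and Nr1d2 followed the used ones in striatum only by sign and size, not by the test. The Arntl probe set 1457740_at differed by -0.43 in striatum (adjusted p = 0.21), 0.12 in cortex and 0.23 in midbrain, which gave -0.03 in the mean over regions (adjusted p = 0.907). The Nr1d2 probe set 1416959_at differed by 0.28 in striatum (adjusted p = 0.254), -0.03 in cortex and -0.15 in midbrain, with 0.03 in the mean (adjusted p = 0.812). When the probe sets of a gene were averaged, neither Arntl (-0.14, adjusted p = 0.159) nor Nr1d2 (0.13, adjusted p = 0.191) passed in the mean over regions. The other probe sets of Per2 differed by -0.24 to 0.01, that of Npas2 by -0.30 to 0.02 and those of Clock by -0.08 to 0.24, none past the test in any region. Over all 24 probe sets the differences were positive for 16 in cortex, 14 in striatum and 16 in midbrain (66.7%, 58.3% and 66.7%), where 53.7%, 47% and 51% of all 45101 probe sets were positive. Among the brighter genes that were tested the positive shares were 64.1%, 40.9% and 57%.

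**Figure D3:**
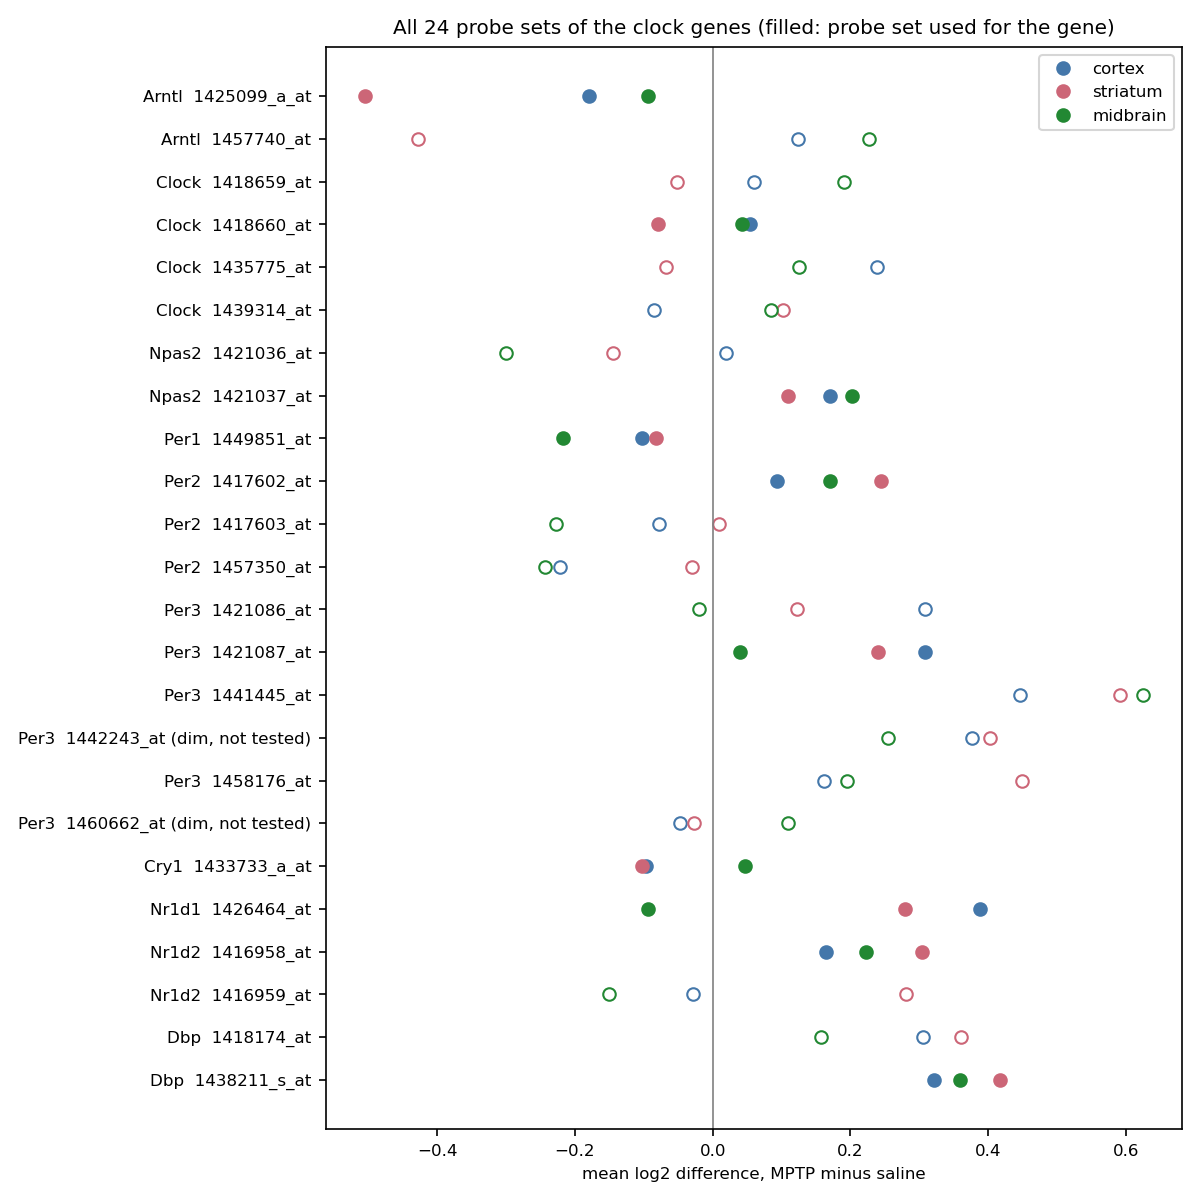
Mean log2 difference between MPTP and saline mice (x axis) for each of the 24 probe sets of the clock genes (y axis), coloured by region; filled points mark the probe set used for the gene. Both Dbp probe sets lie above 0 in every region, 1441445_at of Per3 lies between 0.45 and 0.62, and the second probe sets of Arntl and Nr1d2 lie on both sides of 0.

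In saline mice Npas2, Dbp, Arntl, Per1, Per2 and Cry1 differed between regions by more than any clock gene did between treatments. Npas2, which is known for its forebrain expression, read 8.48, 8.41 and 8.51 in striatum, 7.66, 7.44 and 7.86 in cortex and 5.35, 4.74 and 4.66 in midbrain. The arrays of the 3 regions did not overlap, and 2 of the 3 midbrain arrays were below the filter value of 5.18. The level in midbrain was lower than in striatum by 3.55 on the log2 scale (SE 0.164, adjusted p = 4.53e-15) and than in cortex by 2.73 (adjusted p = 7.89e-13), and striatum was above cortex by 0.81 (adjusted p = 0.000247). The level of Npas2 in midbrain was therefore read near the dim end of the arrays, where no detection call was used. The second probe set gave -2.59, -1.78 and 0.81 for these 3 pairs, all past the test in the fit of probe sets, where 55.3%, 47.7% and 42.4% of all probe sets passed.

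Arntl was also low in midbrain, by 1.12 against striatum (adjusted p = 4.01e-09) and by 0.97 against cortex (adjusted p = 4.88e-08), while striatum and cortex did not differ past the test (0.15, adjusted p = 0.291). Its second probe set placed striatum above cortex by 0.59 (adjusted p = 0.00684) and midbrain lowest. Clock, whose protein shares BMAL1 with NPAS2, passed in no pair of regions, and its largest difference was -0.17 for striatum minus cortex (95% interval -0.33 to -0.01, adjusted p = 0.0773).

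The repressors were split. Per1 read 7.67, 7.92 and 8.50 in cortex, 7.83, 8.50 and 8.66 in striatum and 6.64, 7.32 and 7.56 in midbrain. It was lower in midbrain than in striatum by 1.16 (SE 0.249, adjusted p = 0.000327) and than in cortex by 0.86 (adjusted p = 0.00569), with all midbrain arrays below all others. Per2 read 6.46, 5.79 and 6.80 in cortex, 6.50, 6.28 and 6.68 in striatum and 5.77, 5.61 and 5.72 in midbrain, and was lower in midbrain by 0.79 against striatum (adjusted p = 0.000927) and by 0.65 against cortex (adjusted p = 0.00557). The calls against cortex depended on single arrays. Without cortical replicate 3 the Per1 and Per2 differences were -0.62 and -0.42 (adjusted p = 0.0562 and 0.0674), and without midbrain replicate 1 that of Per1 was -0.59 (adjusted p = 0.0526).

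Cry1 was highest in striatum, at 6.84, 6.54 and 6.50, against 6.00, 5.55 and 6.01 in cortex and 6.16, 5.98 and 6.08 in midbrain. The striatal arrays lay above all others, by 0.78 against cortex (adjusted p = 3.62e-05) and by 0.55 against midbrain (adjusted p = 0.000993). Cortex and midbrain did not differ past the test (0.22, adjusted p = 0.173). Per3 passed in no pair of regions, although its probe sets 1441445_at and 1458176_at were lower in midbrain than in cortex by 0.58 and 0.44 (adjusted p = 0.00292 and 0.0124).

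Dbp had the second largest regional difference after Npas2. It was higher in striatum than in cortex by 1.15 (SE 0.0946, adjusted p = 4e-10) and than in midbrain by 1.28 (adjusted p = 3.04e-11), and cortex and midbrain did not differ past the test. The second probe set gave 1.17 and 1.22. The REV-ERB genes went in opposite directions in midbrain: Nr1d2 was higher there by 0.31 against each other region (adjusted p = 0.00551 and 0.00454), and Nr1d1 was lower than in striatum by 0.40 (adjusted p = 0.0315). The Nr1d1 call was lost without any of the 3 striatal replicates or without midbrain replicate 2 (-0.42 to -0.24, adjusted p from 0.0538 to 0.212).

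In all, 3 of the 10 genes passed for striatum against cortex, 5 for midbrain against cortex and 8 for midbrain against striatum (limma), where 44%, 51.3% and 58.2% of all genes tested passed. Such regional differences are thus common among all genes, and the first count is below that background. These contrasts share groups with one another, and the saline arrays also serve the MPTP comparisons. The order of the 3 regions was the same in saline and MPTP mice for 8 of the 10 genes. It differed for Arntl, where the mean of striatum was above cortex by 0.15 in saline mice and below it by 0.18 in MPTP mice, and for Nr1d2, whose saline means in cortex and striatum differed by less than 0.01.

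**Figure D4:**
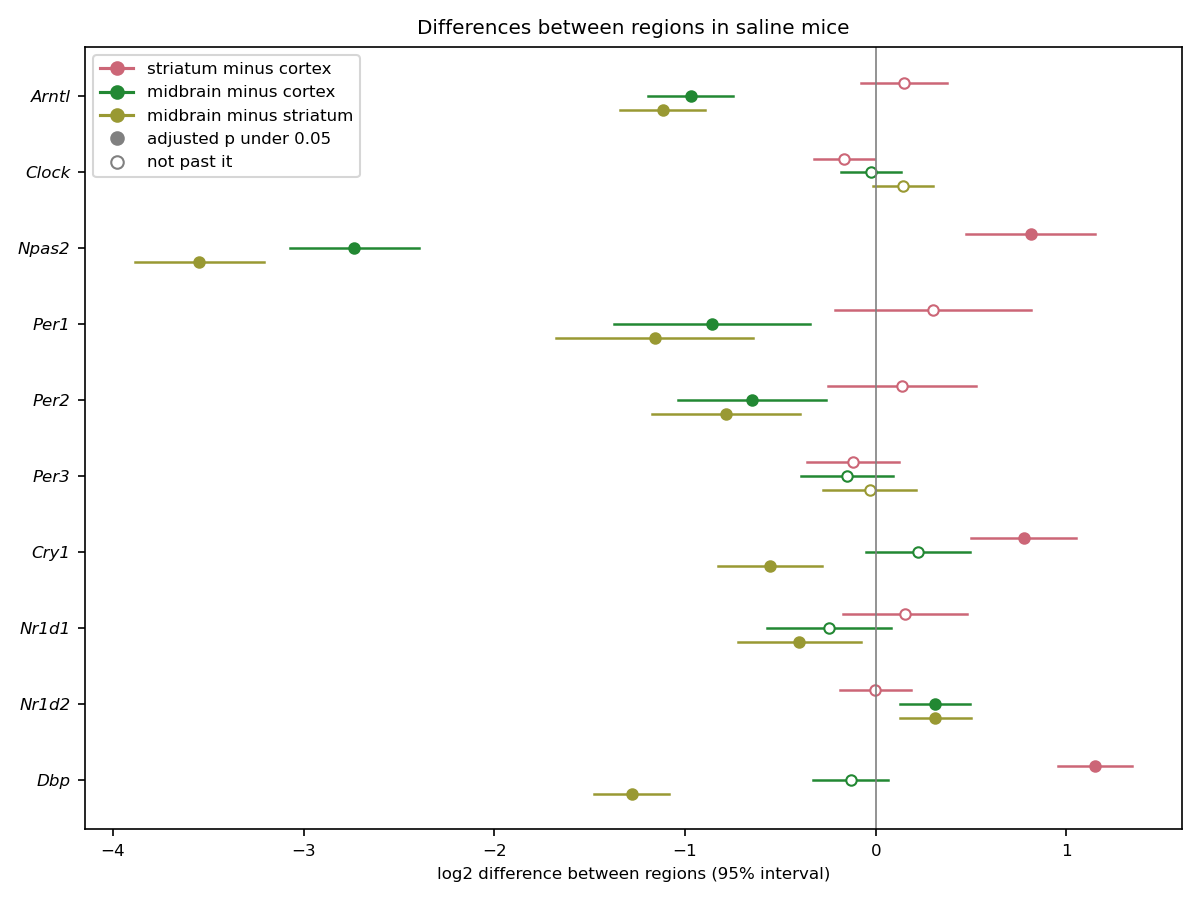
Log2 difference between regions in saline mice (x axis) with its 95% interval for each clock gene (y axis); filled points passed the limma test at an adjusted p under 0.05. Npas2 stands apart, with midbrain 3.55 below striatum, and Clock and Per3 have no filled point.

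The rest of the clock pathway was read from lists of other genes. Of 9 other genes of the loop, 0 passed in any single region in limma. At an unadjusted p under 0.05 in striatum, which 16.3% of all genes tested reached there, were Ciart, a repressor of the CLOCK and BMAL1 pair (0.48), Bhlhe41 and Bhlhe40, E-box repressors also known as DEC2 and DEC1 (0.45 and 0.37), and Hlf, a relative of Dbp (0.22). In the mean over regions, where 6.61% of all genes were called higher and 2.43% lower, 2 of the 9 rose, Rorb by 0.34 (adjusted p = 0.00855) and Ciart by 0.31 (adjusted p = 0.0385). The Rorb call was lost without striatal saline replicate 2 (0.32). That of Ciart was lost without cortical saline replicate 1, any striatal saline replicate, cortical MPTP replicate 2 or 3, striatal MPTP replicate 2 or 3, or midbrain MPTP replicate 1 or 2 (0.25 to 0.32). Rorb encodes a nuclear receptor that binds the same element as the REV-ERB proteins. Hlf differed by 0.15 in the mean (adjusted p = 0.12), and Nfil3, which represses through D-boxes, by -0.19 (adjusted p = 0.172).

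Against the same shares of all genes, 1 of 8 regulators of clock proteins rose and 2 fell in the mean over regions. Usp2, a deubiquitinase, rose by 0.32 (adjusted p = 0.00542), Csnk1d, a kinase of PER proteins, fell by 0.32 (adjusted p = 0.0272) and Btrc, a ubiquitin ligase subunit for PER proteins, fell by 0.17 (adjusted p = 0.0249). The Csnk1d and Btrc calls were both lost without striatal saline replicate 1 or 2. Csnk1d was also lost without cortical MPTP replicate 2 or 3 or striatal MPTP replicate 1 (-0.36 to -0.27 in all), and Btrc without midbrain MPTP replicate 3 (-0.17 to -0.16 in all). Of 8 output genes, 3 rose in the mean over regions, Tspan4 by 0.46 (adjusted p = 0.000259), Tsc22d3 by 0.43 (adjusted p = 0.00624) and Usp2, which is on both lists. Tspan4 also rose in striatum, by 0.69 (adjusted p = 0.00218), and Rgs16, a regulator of G-protein signalling, fell in midbrain by 1.11 (adjusted p = 0.0179), where 0.383% of all genes were called lower. Rgs16 read 7.51, 5.96 and 6.20 in saline midbrain and 5.41, 5.43 and 5.48 in MPTP midbrain. Without saline replicate 1, which stood above the other two, the fall was 0.64 (adjusted p = 0.0202), and the call was lost without MPTP replicate 1 or 3 (-1.10 and -1.13, adjusted p = 0.0578 and 0.107).

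Genes that respond to glucocorticoids and to neuronal activity were called in the same comparisons. Of 15 glucocorticoid-induced genes, 6 rose in the mean over regions, against 6.61% of all genes, among them Plin4 by 0.90, Fkbp5 by 0.47, Mt2 by 0.46 and Tsc22d3 (adjusted p = 0.00203, 0.00117, 0.000657 and 0.00624). Pdk4, named here after its value was seen, fell by 0.25 (adjusted p = 0.0402), a call that was lost without cortical saline replicate 2, any striatal saline replicate, midbrain saline replicate 3, any cortical MPTP replicate, striatal MPTP replicate 3, or midbrain MPTP replicate 1 or 2 (-0.27 to -0.21). The median of the 15 was 0.02 in that comparison.

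Of 16 activity-induced genes, 5 fell and 1 rose in the mean over regions, against 2.43% and 6.61% of all genes, with a median of -0.35. In this list the arrays numbered 1 of MPTP cortex and MPTP striatum stood well below the others of their groups. Array 1 was also the lowest in MPTP midbrain and in saline striatum and midbrain, by smaller distances. The mean log2 level of the list was 7.46, 8.36 and 8.63 in MPTP cortex, 7.08, 7.90 and 7.88 in MPTP striatum and 6.50, 6.79 and 6.70 in MPTP midbrain. In saline mice it was 8.37, 8.33 and 8.57 in cortex, 7.98, 8.33 and 8.31 in striatum and 6.78, 6.79 and 7.04 in midbrain. Without MPTP array 1 of each region, 2 of the 16 fell and 1 rose, with a median of -0.10. With single arrays left out, 3 fell without MPTP array 1 of any one region, striatal saline replicate 2 or midbrain saline replicate 3. Egr2 fell in striatum by 1.55 (adjusted p = 0.0251) and Egr4 by 0.75 (adjusted p = 0.0377), and both calls were lost without striatal saline replicate 2 or 3 or MPTP replicate 1 (-1.39 to -1.22 and -0.74 to -0.50). Per1, which is induced by both stimuli, did not pass, and without MPTP array 1 of each region its mean difference was 0.01 in place of -0.13. Array 1 was the lowest of its group for Per1 in all 6 groups, saline included. Leaving it out of the MPTP groups alone therefore raises the Per1 difference, whatever the level of the activity-induced genes.

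Without these 3 arrays the clock genes called were as many as with them, 0 in cortex, 2 in striatum, 1 in midbrain and 3 in the mean over regions. The mean over regions was then 0.43 for Dbp (adjusted p = 0.000201), 0.28 for Nr1d2 (adjusted p = 0.00274) and -0.33 for Arntl (adjusted p = 0.00564). The part of either stimulus in the values of Dbp, Nr1d2, Per3 and Arntl was not tested.

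Markers of glia moved in striatum along with Dbp and Arntl. There 4 of 10 astrocyte markers, 5 of 7 oligodendrocyte markers and 3 of 8 microglia markers rose, against 1.29% of all genes, and 0 of 8 pan-neuronal markers passed (limma, median -0.03). The astrocyte count was 2 without saline replicate 1 or MPTP replicate 3 and 1 without MPTP replicate 1. The oligodendrocyte count was 2 without saline replicate 3 and 3 without any other single striatal array except MPTP replicate 2. The microglia count was 0 without saline replicate 3 or MPTP replicate 1 and 1 without MPTP replicate 3.

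The mean log2 level of the oligodendrocyte list was 10.56 to 10.60 in saline striatum and 10.99 to 11.05 in MPTP striatum, that of the astrocyte list 9.32 to 9.49 and 9.59 to 9.85, and that of the microglia list 7.94 to 8.05 and 8.15 to 8.42. None of these 3 pairs of ranges overlapped. The list of cortical neuron markers ran from 5.80 to 6.53 in saline striatum and from 4.52 to 6.03 in MPTP striatum, with 0 of 6 called, all 6 differences negative and a median of -0.59. In tissue of mixed cells, fewer cells of a type and less RNA per cell cannot be told apart, and the part of these shifts in the clock gene values was not tested.

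In midbrain, where Dbp also rose, 2 of 10 astrocyte, 1 of 8 microglia and 1 of 7 striatal neuron markers rose, against 2.15% of all genes. The astrocyte list ran from 10.01 to 10.21 after saline and from 10.23 to 10.27 after MPTP, and the microglia list from 7.34 to 7.62 and from 7.68 to 7.74. The oligodendrocyte list, of which no marker passed, ran from 11.06 to 11.19 after saline and from 11.22 to 11.27 after MPTP. The striatal neuron list ran from 6.61 to 6.77 after saline and from 6.82 to 6.94 after MPTP, with all 7 differences positive and a median of 0.13. These ranges did not overlap. In saline mice Dbp was higher in striatum than in midbrain, and so were Arntl, Npas2, Per1, Per2, Cry1 and Nr1d1. Of these genes only Dbp passed between MPTP and saline in midbrain, where Arntl differed by -0.09, Per1 by -0.22 and Npas2 by 0.20. All 3 counts were 0 without saline replicate 2 or 3 or MPTP replicate 3, and the astrocyte count was 1 and the microglia count 0 without MPTP replicate 1. Without MPTP replicate 2 the astrocyte count was 0 and the microglia count 3, and without saline replicate 1 the microglia count was 3 and the striatal neuron count 2. The part of these shifts in the rise of Dbp was not tested.

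In cortex, where all 3 MPTP arrays of Dbp lay above saline, 0 glial markers passed in limma, and only 0.0681% of all genes did. The differences were positive for 8 of 10 astrocyte markers (median 0.06) and 7 of 8 microglia markers (median 0.16), where 64.1% of all genes tested were positive. The astrocyte list ran from 9.60 to 9.64 after saline and from 9.68 to 9.72 after MPTP, and the microglia list from 7.71 to 7.80 and from 7.85 to 8.03. The oligodendrocyte list overlapped there, at 9.19 to 9.47 and 9.19 to 9.49.

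Across the 18 arrays, after the mean of each region was subtracted, Dbp and Nr1d2 ran together with a Pearson correlation of 0.884. With the mean of each group subtracted, which removes the treatment, it was 0.706. Arntl ran against Dbp (-0.556) and against Nr1d2 (-0.544) with the region means subtracted, but not with the group means subtracted (0.223 and 0.0777). All these correlations read each gene by its used probe set. The second Nr1d2 probe set, which differed by -0.03 in cortex and -0.15 in midbrain, did not enter. Nor did the second Arntl probe set, which differed by 0.12 and 0.23 there. These are descriptions over arrays that share 6 groups and may share animals, and they carry no test. Outside the 10 clock genes, the genes most like Dbp by the same region-centred measure were Prps1l3, Xiap and Degs1 (0.885, 0.882 and 0.881). Those most like Nr1d2 were Rac1, Xiap and Zranb2 (0.96, 0.943 and 0.924). Those most like Arntl were Naa35, Alkbh7 and Baiap3 (0.89, 0.89 and 0.863), and those most like Per3 were Agap1, Arhgef10 and Npc1 (0.889, 0.868 and 0.866).

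**Figure D5:**
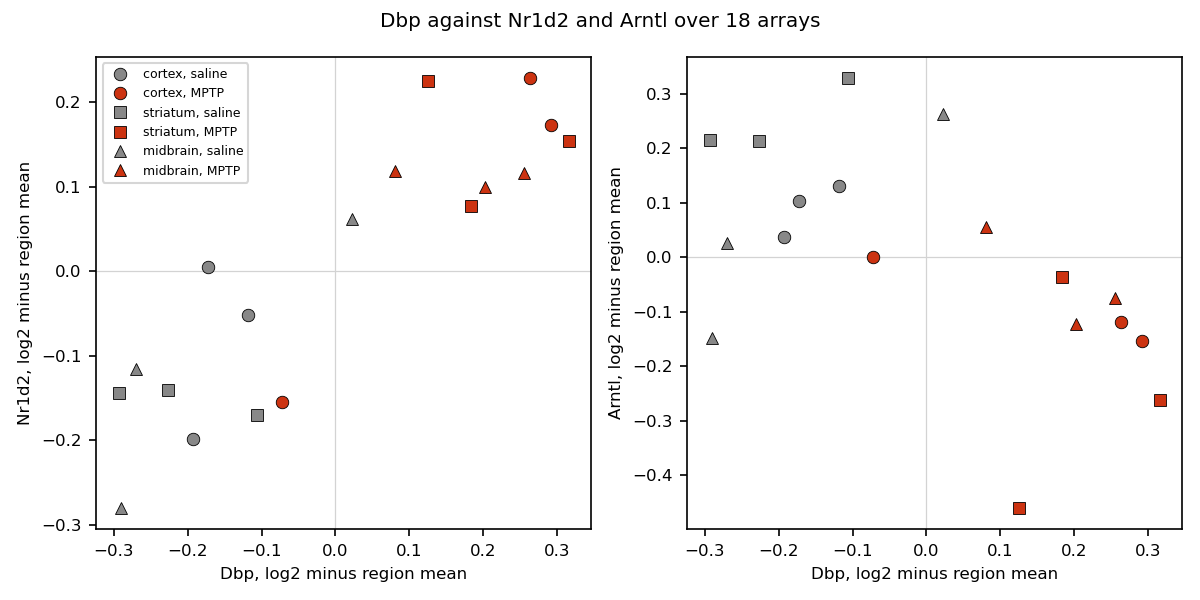
Dbp (x axis) against Nr1d2 and Arntl (y axes), as log2 values minus the region mean, over 18 arrays; shape marks the region and colour the treatment (grey saline, red MPTP). With the probe set used for each gene, arrays high in Dbp are high in Nr1d2 (correlation 0.884), and the correlation with Arntl is -0.556.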

How the data were processed

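Total RNA of each sample was hybridised to 1 Affymetrix array, per the labels. The authors deposited log2 expression values per probe set, for which the submitters' processing notes name RMA without a version. RMA gives the probe intensities of all arrays one distribution, so a shift shared by every gene would go unseen. The deposited values per probe set were not fully alike, with array interquartile ranges from 3.37 to 3.65. Symbols came from the array annotation, updated through GRCm38.p6, and no column was left out.

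A gene was represented by its brightest probe set on average and kept if the mean of some region was 5.18 or more, the median over all probe sets; this left 11741 genes. The model (limma 3.58.1, R 4.3.3) had 6 group means and an intensity trend. P-values were adjusted by Benjamini-Hochberg per contrast, with calls under 0.05. The contrast over all regions had a random block for the presumed animal, taken from treatment and replicate number (correlation 0.00558). Probe sets were fitted likewise. The scripts were tested on simulated data.

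The clock genes and all gene lists were chosen with earlier results of these data known. All clock genes are named; of other lists up to 4 genes a comparison, called ones first, then by p, and 136 of 145 list entries were on the array. Alternatives were other filters, normalisations, probe set rules, variance models and blocks, and each array left out. Added after the data were seen were the interquartile range of the arrays as a covariate, fits without the saline array of lowest range or without MPTP array 1 in each region, and blocks by number or animal between regions. With 3 arrays a group, their number limits the precision.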

Additional observations from a re-analysis of the deposited data

How the results depend on the processing

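The rise of Dbp in the mean over regions passed under every alternative run, with 18 arrays left out in turn (0.34 to 0.41) and 11 other settings (0.32 to 0.43). The count of clock genes called was 2 in striatum and became 1 without the intensity trend and 1 when any one array was left out (1 to 1). In midbrain the count of 1 became 0 with no filter, with the mean over probe sets, without the trend, with the midbrain arrays alone and when the saline array with the lowest interquartile range was left out, and 0 to 2 with single arrays left out. The count of 5 for saline midbrain against cortex ran from 3 to 5 with single arrays left out. Dbp in striatum had an adjusted p of 0.0536 without the trend. Nr1d2 passed in striatum with a second quantile normalisation, the striatal arrays alone or the interquartile range as a covariate (0.28 to 0.31, adjusted p = 0.02, 0.0192 and 0.0239). Per3 passed in the mean over regions with the second quantile normalisation, the mean over probe sets and the covariate (0.184, 0.252 and 0.162). The cause of these shifts was not tested.

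Small differences that had not passed changed sign, still not past the test. With the mean over probe sets these were Per2 in cortex (-0.0687), midbrain (-0.0998) and the mean over regions (-0.0313), Npas2 in striatum (-0.0175) and midbrain (-0.0491) and Arntl in midbrain (0.0664). With the second quantile normalisation they were Clock in midbrain (-0.0127) and the mean (-0.0282), and with the covariate Per2 in cortex (-0.0272) and Clock in the mean (-0.0118). Without the saline arrays of lowest range they were Clock in cortex (-0.00226) and the mean (-0.0267), Per2 in cortex (-0.186), Cry1 in striatum (0.00219) and midbrain (-0.00238) and Per3 in midbrain (-0.0315). Without MPTP array 1 of each region they were Per1 in cortex (0.109), striatum (0.039) and the mean (0.0103), Npas2 in striatum (-0.0465) and Clock in the mean (-0.00345). With single arrays left out the ranges were -0.00226 to 0.106 for Clock, -0.384 to 0.133 for Per1 and -0.186 to 0.318 for Per2 in cortex. They were -0.0465 to 0.238 for Npas2, -0.33 to 0.0836 for Per1 and -0.164 to 0.00219 for Cry1 in striatum. In midbrain they were -0.191 to 0.0139 for Arntl, -0.0332 to 0.0865 for Per3, -0.0635 to 0.128 for Cry1 and -0.255 to 0.0213 for Nr1d1, and for Clock in the mean -0.0135 to 0.0228.

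The labels do not say that a replicate number marks one animal. Deviations of same-numbered arrays correlated between -0.194 and 0.294 across treatments within a region (median -0.0547), so saline and MPTP arrays were not paired by number. Across regions within a treatment they correlated between -0.233 and 0.342 (median 0.138, 11 of 18 over 0.1), against a median of -0.0609 and 4 of 36 over 0.1 for different numbers. The deviations of a group sum to 0, so higher values for the same number go with lower ones for different numbers. The values for different numbers are therefore not an independent comparison. All 3 pairs were over 0.1 for saline midbrain with cortex (0.225, 0.342 and 0.249) and for MPTP midbrain with striatum (0.169, 0.183 and 0.117). Saline striatum went otherwise, at -0.133, -0.202 and 0.141 with cortex and -0.164, -0.233 and 0.061 with midbrain. Its arrays 1 and 2 correlated at 0.3 and 0.142 with cortex arrays 2 and 1, and at 0.252 and 0.187 with midbrain arrays 2 and 1. One mouse per number was thus not borne out for saline striatum. The random block in the mean over regions presumed one mouse per number within a treatment. No call of a clock gene changed without it, but its correlation was 0.00558, so both fits are nearly alike. Either fit treats the arrays of one presumed mouse as nearly independent. The unchanged calls therefore cannot show that the regions of one mouse are independent. With the replicate number as a block, 2 clock genes passed in striatum, 1 in midbrain, 3 in the mean over regions and 0 in cortex, and no call of a clock gene changed. On the saline arrays alone with that block, 4, 5 and 8 passed between regions, against 3, 5 and 8.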

Other observations

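Some of the spread of Per1 and Per2 among arrays of one group recurred under the same replicate number, which was looked at after the values were seen. The array numbered 1 was the lowest of its group for Per1 in all 6 groups, and the array numbered 3 the highest in 5 of them. A single number was lowest in all 6 groups for 0.503% of all genes tested, and lowest in all 6 with another number highest in at least 5 for 0.136%. The array numbered 2 was the lowest for Per2 in 5 of 6 groups and the array numbered 3 the highest in 5. For Npas2 the array numbered 2 was the lowest in 5 groups, and for Arntl the array numbered 1 was the highest in 5. A number lowest in at least 5 groups was found for 6.18% of all genes, and one highest in at least 5 for 6.22%. The labels do not say what a number marks, and saline and MPTP mice are different animals. Dbp showed no such recurrence, since each number was lowest in 2 groups and highest in 2.

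Subtracting the group means leaves the spread among arrays of one group, in which differences between mice and between arrays cannot be told apart. Arntl and Npas2 then correlated at 0.748 over the 18 arrays, Clock and Per2 at 0.755, Clock and Npas2 at 0.711, and Arntl and Per1 at -0.616. The first of these was 0.185 when only the region means were subtracted. Npas2 deviated widely in midbrain, for example by 0.436 and 0.283 for saline and MPTP replicate 1. There 2 arrays of each treatment were below the filter value. These values carry no test, and the arrays of one mouse may share them.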
